A study of Mus musculus with 2 samples.

Results

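The genes described here carry out fatty-acid oxidation and lipolysis: 34 genes, taken by symbol from the 18159 genes of an mRNA-sequencing (mRNA-seq) table of mouse jejunal muscle, and all 34 were listed there. The study asked how the loss of *Dnmt1*, the methyltransferase that copies CpG methylation onto newly made DNA, affects gut smooth muscle. Tunica muscularis, the muscle coat of the intestine, was peeled from the jejunum of C57BL/6 mice at 15 days of age, and 1 library was made from each genotype. Both genotypes carry smMHC Cre-eGFP/+, a Cre recombinase and green fluorescent protein driven by the *Myh11* promoter. *Dnmt1*-KO mice have in addition a floxed *Dnmt1* that this Cre deletes in smooth muscle cells (SMC), and *Dnmt1*-WT mice keep the gene. The description field of both samples names the knockout genotype, and the groups here follow the title and genotype labels. Per the study's methods each genotype came from 2 males and 2 females, and how their RNA was combined is not given. The tissue was not sorted, so cells other than SMC in the peeled layer contribute to the values. In such bulk tissue, fewer cells of a type and less RNA per cell cannot be told apart.

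Triglyceride stored in a cell is cut by lipases into fatty acids, and lipoprotein lipase does the same to triglyceride in the blood. Fatty acids are then joined to coenzyme A by acyl-CoA synthetases, carried into mitochondria by the carnitine shuttle, and shortened there in repeated rounds by a dehydrogenase, a hydratase, a second dehydrogenase and a thiolase, with electrons passing through the electron transfer flavoprotein to the respiratory chain. Muscle burns fatty acids by this route, adipocytes store and release them, and the intestinal epithelium absorbs them from the diet. The PPAR nuclear receptors and the coactivator PGC-1alpha are known regulators of many of these genes.

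Levels are in FPKM, fragments normalised to transcript length and to all mapped fragments, which scales for transcript length and sequencing depth. The deposited table holds FPKM without read counts, so no counting error was computed for a gene, and with 1 library per genotype there is no spread between replicates, so the values carry no test and every difference below compares 2 libraries. FPKM summed to 429698 in *Dnmt1*-WT and 460845 in *Dnmt1*-KO. *Dnmt1* itself was at 11.6 FPKM in *Dnmt1*-WT and 7.58 FPKM in *Dnmt1*-KO, a KO/WT ratio of 0.655. Whole-transcript FPKM can include exons that Cre leaves in place, and cells other than SMC keep the gene, so this value may show only part of the deletion. How far either contributes to the value was not tested. Smooth muscle markers were abundant in both libraries, with *Acta2* at 5408 and 4016 FPKM, and all 10 smooth muscle markers were lower in *Dnmt1*-KO, at ratios of 0.427 to 0.893.

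DNMT1 acts at CpG sites, so the CpG content of the DNA around the starts of these genes was read from the reference. RefSeq promoter windows (GRCm38.p6, 250 bases before to 50 bases after a start) were found for 30 of the 34 genes, 33 windows in all. *Acaa2*, *Decr1*, *Cpt1b* and *Lpl* had no window. The windows held a median of 17 CpG sites, against 7 over all 32851 RefSeq windows, and the 18 windows of the shuttle and oxidation enzymes held 9 to 34. Only 4 windows held 5 CpG sites or fewer: *Cd36* with 3, *Ppargc1a* with 5, and a downstream start of *Lipe* with 2 and of *Acsl1* with 4. The upstream start of *Acsl1* held 30 and that of *Lipe* held 19. Methylation of these sites was not analysed here. The upstream 250 bases are shown for 3 genes with a KO/WT ratio of 2 or more and for 2 dehydrogenases, *Acadl* and *Acadm*, among windows that overlap no annotated exon, so that CpG-poor and CpG-rich starts can be seen side by side. They lie at chr5:17835897-17836146 on the minus strand (*Cd36*), chr8:46470787-46471036 and chr8:46490716-46490965 on the plus strand (*Acsl1*, upstream and downstream start), chr7:141454938-141455187 on the plus strand (*Pnpla2*), chr1:66863310-66863559 on the minus strand (*Acadl*) and chr3:153944644-153944893 on the minus strand (*Acadm*). Each is printed 5′ to 3′ in the direction of transcription, with CpG sites in capitals.
Cd36: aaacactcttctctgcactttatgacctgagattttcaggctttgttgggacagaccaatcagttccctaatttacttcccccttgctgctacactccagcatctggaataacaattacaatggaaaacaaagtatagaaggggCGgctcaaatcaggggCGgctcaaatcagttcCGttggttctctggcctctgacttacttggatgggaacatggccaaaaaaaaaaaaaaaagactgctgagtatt
Acsl1 upstream start: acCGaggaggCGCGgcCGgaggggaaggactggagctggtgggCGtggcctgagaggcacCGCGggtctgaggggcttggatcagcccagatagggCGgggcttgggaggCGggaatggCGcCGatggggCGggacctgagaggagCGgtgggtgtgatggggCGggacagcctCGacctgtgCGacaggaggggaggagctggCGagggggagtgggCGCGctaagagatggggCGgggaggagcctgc
Acsl1 downstream start: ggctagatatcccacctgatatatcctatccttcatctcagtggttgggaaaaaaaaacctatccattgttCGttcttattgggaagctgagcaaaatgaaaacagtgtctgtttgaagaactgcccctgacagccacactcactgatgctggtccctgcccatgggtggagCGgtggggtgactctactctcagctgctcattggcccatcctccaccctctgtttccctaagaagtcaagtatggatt
Pnpla2: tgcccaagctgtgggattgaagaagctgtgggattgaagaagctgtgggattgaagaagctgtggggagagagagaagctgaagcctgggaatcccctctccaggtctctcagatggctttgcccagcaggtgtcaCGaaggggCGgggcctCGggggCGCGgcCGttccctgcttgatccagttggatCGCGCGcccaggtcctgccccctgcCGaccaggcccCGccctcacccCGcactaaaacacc
Acadl: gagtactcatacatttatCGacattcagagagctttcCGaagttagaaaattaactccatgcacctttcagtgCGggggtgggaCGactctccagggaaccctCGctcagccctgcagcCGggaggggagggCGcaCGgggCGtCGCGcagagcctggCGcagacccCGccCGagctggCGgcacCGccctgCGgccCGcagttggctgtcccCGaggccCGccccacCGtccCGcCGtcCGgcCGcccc
Acadm: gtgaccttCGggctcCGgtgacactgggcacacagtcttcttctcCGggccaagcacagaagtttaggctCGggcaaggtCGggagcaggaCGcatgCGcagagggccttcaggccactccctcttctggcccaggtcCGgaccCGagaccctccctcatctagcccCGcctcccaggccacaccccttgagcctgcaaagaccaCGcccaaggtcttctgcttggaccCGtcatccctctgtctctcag
In these upstream parts *Cd36* holds 3 CpG sites, the downstream start of *Acsl1* 2, its upstream start 20, *Pnpla2* 12, *Acadl* 25 and *Acadm* 12. PPAR and its partner RXR bind a direct repeat of AGGTCA with 1 base between. Neither that repeat nor the looser AGGNCA repeat, both searched on both strands, was found in the 33 windows, and 0.0396% and 0.381% of all windows hold them. A single AGGTCA, which 16.3% of all windows hold, was found in those of *Acadm*, *Acadvl*, *Cd36*, *Cpt1a* and *Echs1*.

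Across the 34 genes the libraries differed little in the enzymes of oxidation and more in the genes before it. The level was at least 2 times higher in *Dnmt1*-KO for 5 genes, *Lpl*, *Acsl1*, *Cd36*, *Lipe* and *Pnpla2*, which is 14.7% of the 34, where 11.8% of all 16102 genes above 0 FPKM in both libraries were. *Ppara* alone had a KO/WT ratio of 0.5 or less, 1 of 34, where 4.98% of all genes did. Among the 33 members at 1 FPKM or more in both libraries, 5 had a ratio of 2 or more and 0 a ratio of 0.5 or less, beside 5.53% and 2.82% of the 12758 genes at that level. The share of the higher group is thus close to the background without the filter on low values, and above it with the filter. The members were chosen with earlier results of these data known, so neither comparison is independent of the data. The median log2 ratio of the 34 genes, with 0.1 FPKM added, was 0.04, and that of all 13865 genes at 1 FPKM or more in one library was -0.01.

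**Figure D1:**
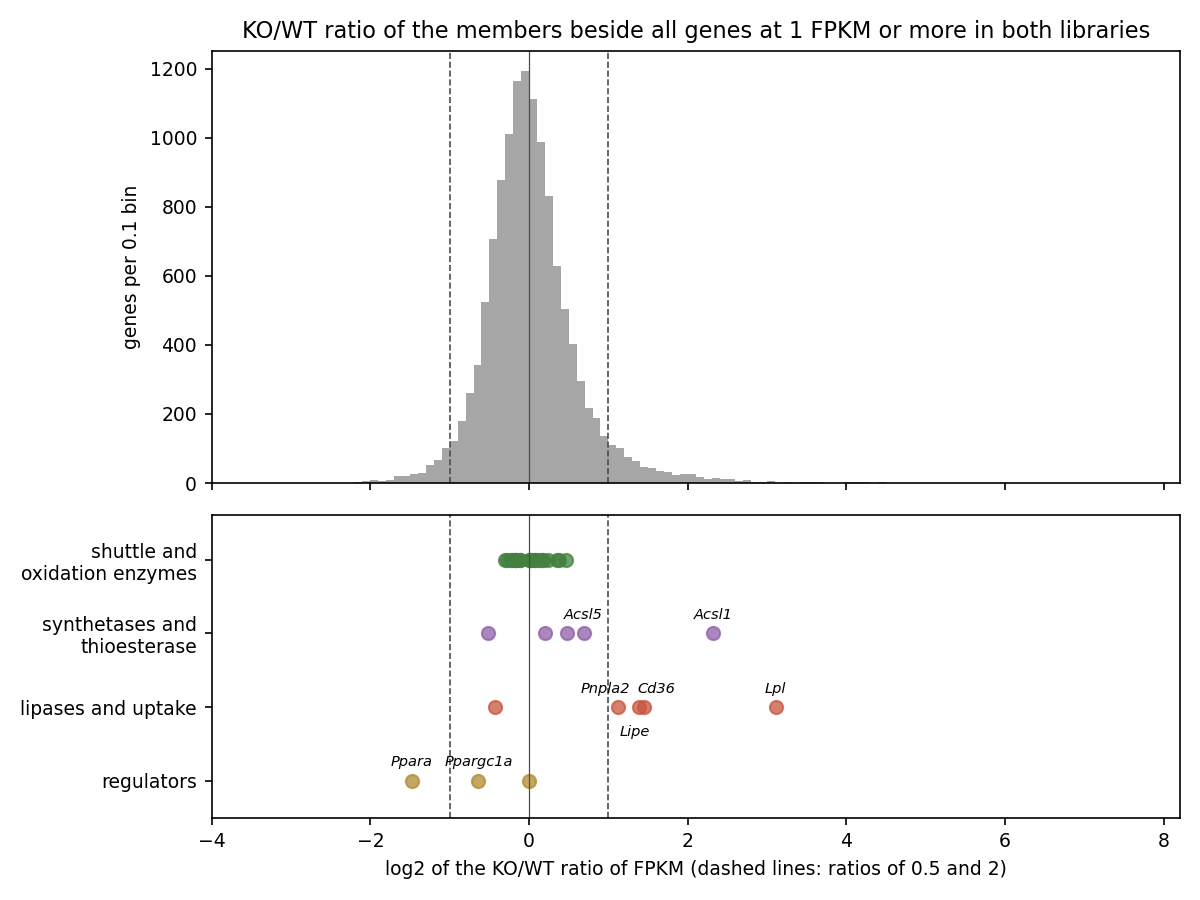
Log2 of the KO/WT ratio of FPKM, as a histogram of the 12758 genes at 1 FPKM or more in both libraries (top, genes per bin) and as 1 point per member grouped by role (bottom). All 21 shuttle and oxidation enzymes lie between the dashed lines at ratios of 0.5 and 2, and *Lpl*, *Acsl1*, *Cd36*, *Lipe* and *Pnpla2* lie to the right of them.

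The 21 shuttle and oxidation enzymes had ratios between 0.808 and 1.38, and 0 of them differed by 1.5-fold or more in either direction. Of the 33 members at 1 FPKM or more in both libraries 7 did, beside 22.9% of the 12758 genes. The 21 enzymes summed to 825 FPKM in *Dnmt1*-WT and 860 FPKM in *Dnmt1*-KO. Of the summed level of all 34 genes, these enzymes made up 80.5% for *Dnmt1*-WT and 71.8% for *Dnmt1*-KO. Ratios were above 1 for 12 enzymes and below 1 for 9 in the values as deposited, and for 7 and 14 after division by the FPKM sum, so no common direction can be given.

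**Figure D2:**
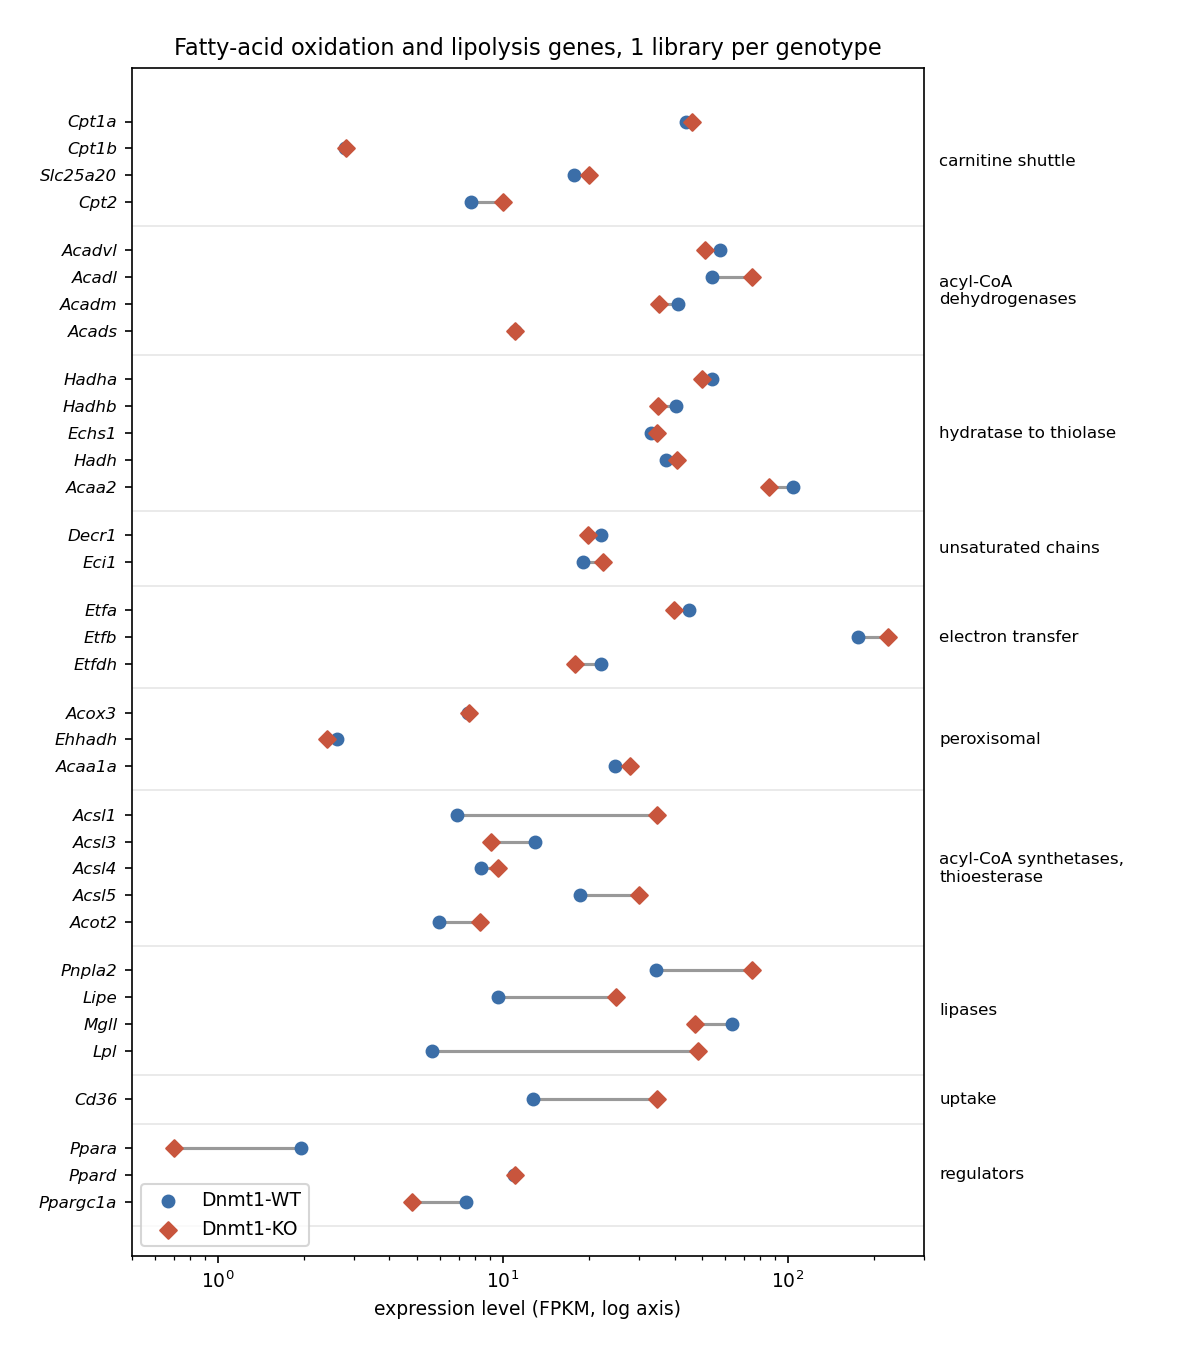
Level of each of the 34 genes in FPKM (log axis) in the *Dnmt1*-WT library (circles) and the *Dnmt1*-KO library (diamonds), joined by a line and ordered by role. The oxidation enzymes nearly coincide, *Acsl1*, *Lpl*, *Cd36*, *Lipe* and *Pnpla2* are higher in *Dnmt1*-KO, and *Ppara* is the lowest of the set in both libraries, at 1.95 and 0.7 FPKM.

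In the carnitine shuttle, *Cpt1a*, the outer-membrane acyltransferase that sets the rate of entry, was at 43.8 FPKM in *Dnmt1*-WT and 46.0 FPKM in *Dnmt1*-KO. Its muscle-type isoform *Cpt1b* was at 2.80 and 2.82 FPKM. *Cpt1a* was therefore 15.7 times as high as *Cpt1b* in *Dnmt1*-WT and 16.3 times in *Dnmt1*-KO, so the liver-type isoform was the higher of the pair in both genotypes. The carnitine carrier *Slc25a20* was at 17.8 and 20.0 FPKM, and the inner-membrane *Cpt2* at 7.71 and 10.04 FPKM, a ratio of 1.30. The ratios of *Cpt1a* and *Cpt1b* fell below 1 after division by the FPKM sum.

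Among the acyl-CoA dehydrogenases, which make the first double bond and are named for chain length, the long-chain *Acadl* was higher in *Dnmt1*-KO, at 74.6 against 54.1 FPKM, the largest ratio of the 21 enzymes (1.38). The very-long-chain *Acadvl* was at 57.6 FPKM in *Dnmt1*-WT and 51.2 FPKM in *Dnmt1*-KO, and the medium-chain *Acadm* at 41.1 and 35.2 FPKM. Short-chain *Acads* was at 11.03 and 11.06 FPKM. *Acadl* thus moved from below to above *Acadvl* between the libraries.

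The trifunctional protein takes long chains through the next steps, and its subunits are encoded by a pair of genes that start 273 bases apart on opposite strands of chromosome 5. *Hadha* was at 54.3 FPKM in *Dnmt1*-WT and 50.03 FPKM in *Dnmt1*-KO, and *Hadhb* at 40.6 and 35.0 FPKM. The level of *Hadha* over *Hadhb* was 1.34 in *Dnmt1*-WT and 1.43 in *Dnmt1*-KO. For short and medium chains, the hydratase *Echs1* was at 33.0 and 34.8 FPKM and the dehydrogenase *Hadh* at 37.3 and 40.8 FPKM. The thiolase *Acaa2*, the second most abundant of the 34 genes in both libraries, was at 104 FPKM in *Dnmt1*-WT and 86.0 FPKM in *Dnmt1*-KO. Unsaturated chains need *Decr1*, a reductase at 22.2 and 19.8 FPKM, and *Eci1*, an isomerase at 19.0 and 22.4 FPKM. All 7 of these genes had ratios between 0.823 and 1.18.

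The 3 electron transfer genes stayed within 1.5-fold. *Etfb*, the beta subunit of the electron transfer flavoprotein and the most abundant of the 34 genes, was at 176 FPKM in *Dnmt1*-WT and 225 FPKM in *Dnmt1*-KO. Its partner subunit *Etfa* was at 45.0 and 39.8 FPKM, and *Etfdh*, which hands the electrons to ubiquinone, at 22.2 and 17.9 FPKM, the lowest ratio of the 21 enzymes (0.808). The level of *Etfb* over *Etfa* was 3.91 in *Dnmt1*-WT and 5.65 in *Dnmt1*-KO. Centred within bins of transcript length, the ratio of *Etfb* was 1.09 in place of 1.28.

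Peroxisomes shorten chains that are too long or branched for mitochondria. The oxidase *Acox3* was at 7.52 FPKM in *Dnmt1*-WT and 7.63 FPKM in *Dnmt1*-KO, and the bifunctional enzyme *Ehhadh* at 2.62 and 2.42 FPKM. The thiolase *Acaa1a* was at 24.7 and 27.9 FPKM. A near-identical copy, *Acaa1b*, matches it at 96.6% of 1428 aligned bases, so how reads were divided between them is uncertain, and *Acaa1b* was listed at 0.42 and 1.96 FPKM.

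Of the 5 genes that join fatty acids to coenzyme A or free them from it, 1 reached 2-fold. *Acsl1* (chr8:46471037-46536051, plus strand), the long-chain acyl-CoA synthetase of fat, liver and heart, was at 6.93 FPKM in *Dnmt1*-WT and 34.6 FPKM in *Dnmt1*-KO, a ratio of 4.99, which 0.721% of the genes at 1 FPKM or more exceeded. *Acsl5*, which is known in the intestinal epithelium, was at 18.7 and 30.1 FPKM (1.61). *Acsl4*, which prefers arachidonic acid, was at 8.39 and 9.64 FPKM, and *Acsl3*, found on lipid droplets and the endoplasmic reticulum, at 13.0 and 9.05 FPKM (0.696). Together with *Acsl6*, the synthetase family summed to 52.6 FPKM in *Dnmt1*-WT and 88.0 FPKM in *Dnmt1*-KO. *Acsl1* made up 13.2% of it in *Dnmt1*-WT and 39.3% in *Dnmt1*-KO, while the share of *Acsl3* went from 24.7% to 10.3% and that of *Acsl5* was 35.5% and 34.2%. The most abundant synthetase was *Acsl5* in *Dnmt1*-WT and *Acsl1* in *Dnmt1*-KO. The mitochondrial thioesterase *Acot2*, which frees fatty acids from coenzyme A, was at 5.97 and 8.34 FPKM. Its cytosolic copy *Acot1*, alike at 93.8% of 1337 bases and thus of uncertain read share, was at 4.33 and 8.44 FPKM.

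**Figure D3:**
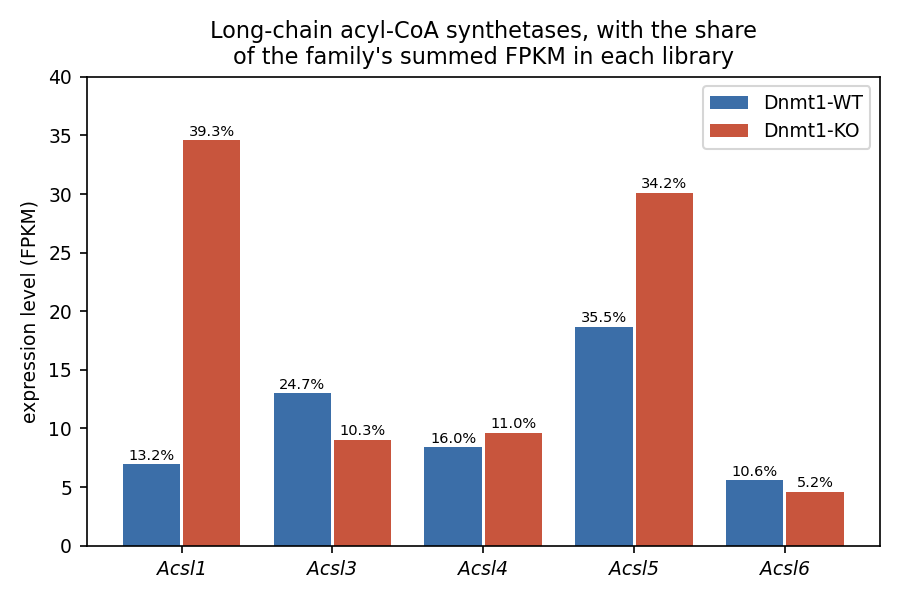
Levels of the 5 long-chain acyl-CoA synthetases in FPKM in the *Dnmt1*-WT and *Dnmt1*-KO libraries, with each gene's percent of the family's summed FPKM above its bar. *Acsl1* goes from 13.2% to 39.3% of the family and *Acsl3* goes from 24.7% to 10.3%.

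Of the 4 lipases among the 34 genes, 3 were higher in *Dnmt1*-KO by 2-fold or more. *Lpl* (chr8:68880491-68907448, plus strand), which frees fatty acids from lipoproteins at the vessel wall, was at 5.63 FPKM in *Dnmt1*-WT and 48.5 FPKM in *Dnmt1*-KO, a ratio of 8.62 that 0.219% of the genes at 1 FPKM or more exceeded. By level it stood at place 31 of the 34 genes in *Dnmt1*-WT and at place 7 in *Dnmt1*-KO. *Pnpla2* (chr7:141455198-141460743, plus strand), adipose triglyceride lipase, which makes the first cut in stored triglyceride, was at 34.4 and 74.8 FPKM (2.17). *Lipe* (chr7:25379527-25398710, minus strand), hormone-sensitive lipase, which makes the next cut, was at 9.60 and 25.02 FPKM (2.61). The last step went the other way: *Mgll*, monoacylglycerol lipase, was at 63.7 FPKM in *Dnmt1*-WT and 47.1 FPKM in *Dnmt1*-KO (0.740). *Mgll* was thus the most abundant of these 4 lipases in *Dnmt1*-WT and *Pnpla2* in *Dnmt1*-KO.

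The fatty-acid translocase *Cd36* (chr5:17781690-17888801, minus strand), which brings fatty acids across the plasma membrane, was at 12.8 FPKM in *Dnmt1*-WT and 34.8 FPKM in *Dnmt1*-KO (2.72). The table also gives the number of transcript variants found per gene, and *Cd36* had 3 in *Dnmt1*-WT and 7 in *Dnmt1*-KO, and 7 of 16102 genes, *Cd36* among them, gained 4 or more. *Acsl5* went from 2 to 4 variants. In all, 5 of the 34 genes had more variants in *Dnmt1*-KO and 2 had fewer, beside 12.5% and 13.6% of all genes. Together the 5 genes *Lpl*, *Cd36*, *Pnpla2*, *Lipe* and *Acsl1* summed to 69.4 FPKM in *Dnmt1*-WT and 218 FPKM in *Dnmt1*-KO, 6.77% and 18.2% of the members' summed level.

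Of the 3 regulators, *Ppara* and *Ppargc1a* were lower in *Dnmt1*-KO and *Ppard* was level. *Ppara*, the nuclear receptor that switches on oxidation genes, was at 1.95 FPKM in *Dnmt1*-WT and 0.70 FPKM in *Dnmt1*-KO (0.359), both low. *Ppargc1a*, which encodes PGC-1alpha, was at 7.44 and 4.78 FPKM (0.642). *Ppard*, the widely expressed receptor of the family, was at 10.96 and 11 FPKM, and its ratio fell on either side of 1 depending on the scaling. Adding 1 FPKM to both values moved the ratio of *Ppara* to 0.576. *Pparg*, the receptor of fat cells and no member of the set, was at 0.83 FPKM in *Dnmt1*-WT and 3.52 FPKM in *Dnmt1*-KO (4.24). The level of *Pparg* over *Ppara* was 0.426 in *Dnmt1*-WT and 5.03 in *Dnmt1*-KO, so the order of these receptors was exchanged. In each library 1 of these 2 genes was below 1 FPKM, which limits this comparison.

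Outside the 34 genes, 73 further genes of the pathway were read by list, and 68 of them reached 1 FPKM in one library. Of these 68, 9 had a ratio of 2 or more and 1 a ratio of 0.5 or less, where 1258 and 506 did of the 13769 genes at that level that were also above 0 FPKM in both libraries. Genes that move or bind fatty acids had the highest median of the 6 pathway lists, a log2 ratio of 0.95 with 0.1 FPKM added, and 4 of 7 had a ratio of 2 or more (3 of 7 after division by the FPKM sum). One of the 4, the transporter *Slc27a2*, was below 1 FPKM in both libraries, at 0.25 and 0.51 FPKM. Of the others, *Fabp4*, the adipocyte binding protein, was at 104 and 875 FPKM, *Fabp5* at 26.3 and 65.5 FPKM, and *Gpihbp1*, which anchors lipoprotein lipase to capillaries, at 11.2 and 25.8 FPKM. *Lpl* was 0.501 times as high as *Gpihbp1* in *Dnmt1*-WT and 1.88 times in *Dnmt1*-KO. A list of lipase partners and inhibitors, which also holds other lipases, had 14 genes above 0 FPKM in both libraries. Of these 14, 4 had a ratio of 2 or more. The 4 include the droplet coats *Plin1* at 0.33 and 23.3 FPKM and *Plin2* at 20.0 and 43.9 FPKM. *Angptl4*, an inhibitor of lipoprotein lipase, is another, at 16.7 and 51.3 FPKM. The remaining one, *Angptl8*, listed as *Gm6484*, was below 1 FPKM in both libraries, at 0.03 and 0.88 FPKM. The droplet coats *Plin3* (1.34) and *Plin4* (0.940) did not reach 2. The other lipases of the list were all below 2: *Lipa* (1.26), *Ces1d* (1.03), *Daglb* (0.978), *Abhd6* (0.942) and *Pnpla8* (0.609).

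The coactivator and the inhibitor of adipose triglyceride lipase differed less than the lipase. *Abhd5*, the coactivator, was at 8.91 and 9.34 FPKM, and *G0s2*, the inhibitor, at 40.2 and 65.1 FPKM. The level of *Pnpla2* over *Abhd5* was 3.86 in *Dnmt1*-WT and 8.004 in *Dnmt1*-KO. *Lmf1*, needed to fold lipoprotein lipase, was at 13.2 and 13.4 FPKM.

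A further 19 genes were listed under mitochondrial oxidation, though not all act in mitochondria, the cytosolic *Acot1* among them. Of these 19 genes, 0 reached a ratio of 2 or more and 0 one of 0.5 or less. After division by the FPKM sum 1 of the 19, *Acss1*, was at 0.5 or less. As deposited, the median ratio of the 19 was 0.867, with 15 below 1, where the 21 enzymes had 9 below 1 and a median of 1.01. Among those 19 genes 3 passed 1.5-fold: *Acot1* (1.95), *Acot13* (0.610) and *Acss1* (0.501). Of 14 further peroxisomal genes, *Acaa1b* (4.67) and *Abcd2*, a very-long-chain transporter at 0.74 and 1.78 FPKM, had a ratio of 2 or more, and the median ratio was 0.993. Among 13 other regulators above 0 FPKM in both libraries, *Pparg* was the one at 2 or more. *Prkaa2*, the alpha2 catalytic subunit of the energy sensor AMPK, was the one at 0.5 or less, at 27.9 FPKM in *Dnmt1*-WT and 9.31 FPKM in *Dnmt1*-KO (0.334).

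A pair of neighbouring pathways were set beside the members. All 24 respiratory chain and ATP synthase subunits stayed within 1.5-fold in the values as deposited, with a median ratio of 0.897. They ran from the ATP synthase subunit *Atp5b* at 0.711 to *Cox5a* at 1.13, and 1 passed 1.5-fold after division by the FPKM sum. Fatty-acid and triglyceride synthesis was divided, with 6 of 16 genes at 2 or more (5 after division by the FPKM sum) and 0 at 0.5 or less. *Thrsp* was at 1.66 and 21.5 FPKM, *Mlxipl* at 0.26 and 2.00 FPKM, and the acyltransferase *Agpat2* at 8.08 and 35.4 FPKM, while the desaturase *Scd2* was at 62.7 and 46.2 FPKM. The median ratio of the 16 genes was 1.16.

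**Figure D4:**
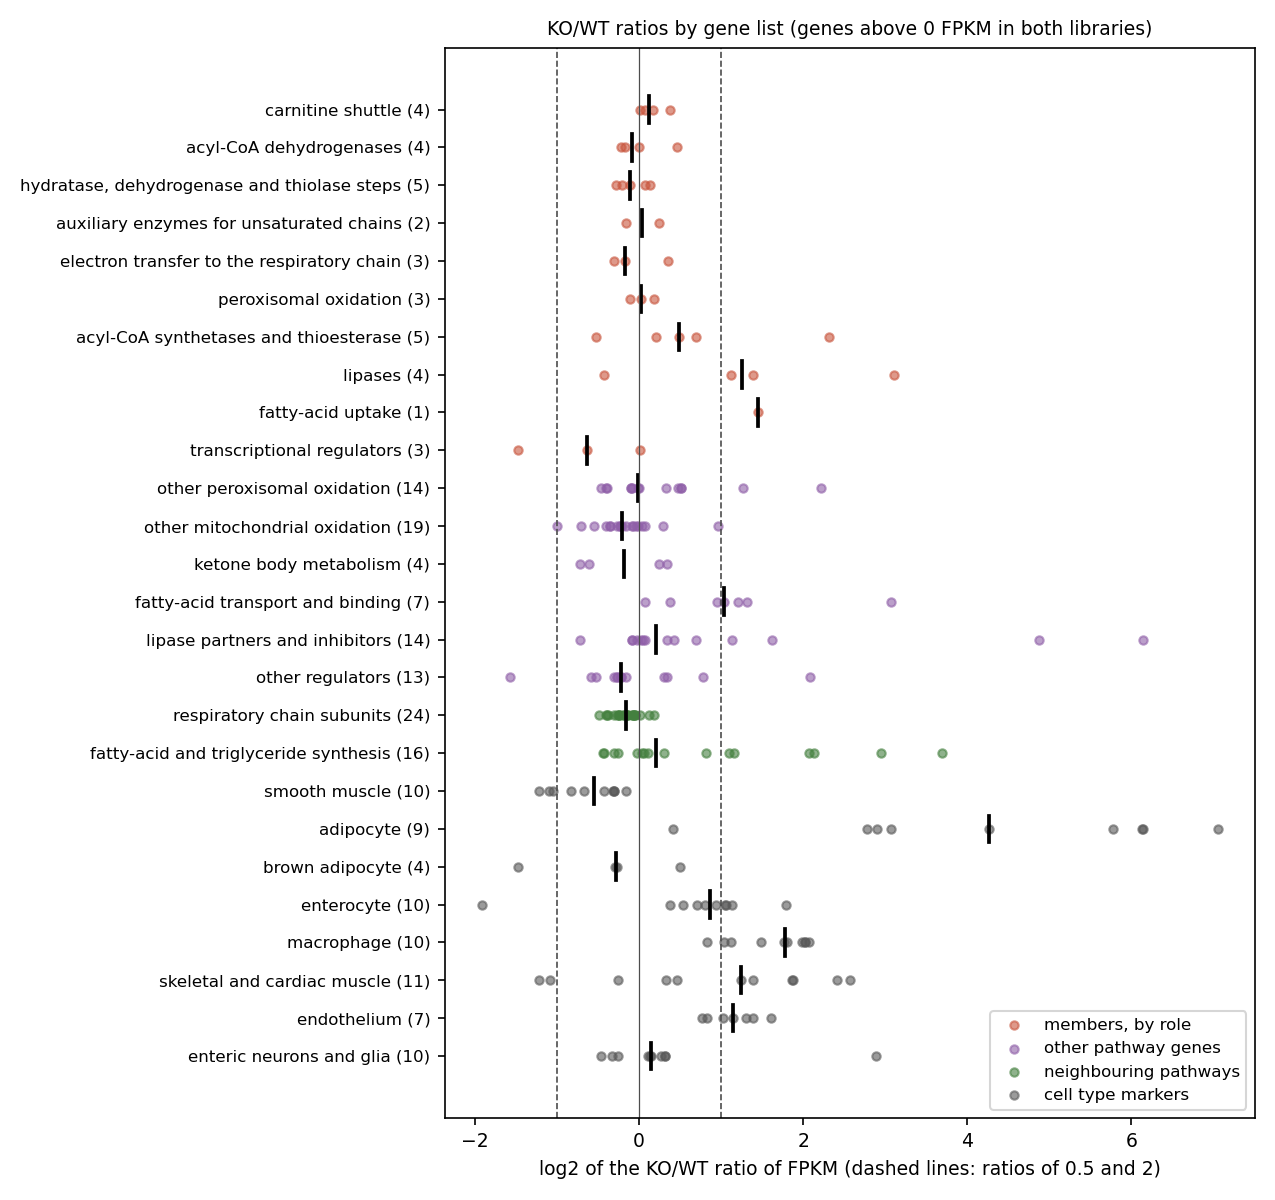
Log2 of the KO/WT ratio of FPKM for each gene above 0 FPKM in both libraries, 1 row per list with its number of genes in brackets and a black bar at the list's median. By median, the lipases, uptake and transport lists sit to the right of the oxidation lists. So do the adipocyte, macrophage, endothelium, enterocyte, and skeletal and cardiac muscle markers, while the smooth muscle markers sit to the left of 0.

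Most markers of adipocytes, macrophages, endothelium and enterocytes were higher in *Dnmt1*-KO. All 9 adipocyte markers above 0 FPKM in both libraries were higher in *Dnmt1*-KO, 8 of them by 2-fold or more, and *Lep* was listed at 0 in *Dnmt1*-WT. The adipocyte list summed to 122 FPKM in *Dnmt1*-WT and 1245 FPKM in *Dnmt1*-KO, led by *Fabp4*, *Cfd* (2.61 and 183 FPKM), *Adipoq* (0.85 and 46.7 FPKM) and *Retn* (0.29 and 38.6 FPKM). *Lpl*, *Lipe*, *Pnpla2*, *Acsl1* and *Cd36* are known to be abundant in adipocytes, and *Lpl* and *Cd36* also in macrophages. The lipase *Mgll* and the droplet coat *Plin4* were not higher in *Dnmt1*-KO, at ratios of 0.740 and 0.940. Macrophage markers were higher in 10 of 10 genes and summed to 144 and 507 FPKM, endothelial markers in 7 of 7 genes with sums of 58.5 and 127 FPKM, and enterocyte markers in 9 of 10 genes with sums of 488 and 1055 FPKM. The part of these cell types in the levels of the 34 genes was not tested, and *Fabp4* and *Plin1* stand in the pathway lists as well. The brown adipocyte list summed to 60.0 and 48.6 FPKM, with *Elovl3* listed at 0 in both libraries. That list includes *Ppara*, itself one of the 34 genes and the only one of the list at 0.5 or less, and its defining marker *Ucp1* was not analysed here. The smooth muscle list summed to 17017 and 12273 FPKM. Skeletal and cardiac muscle markers went both ways, with 6 of 11 at a ratio of 2 or more, 2 at 0.5 or less and a median ratio of 2.36, but 3 of the 6 (*Myh2*, *Myh6* and *Mb*) were below 1 FPKM in both libraries. Their sums, 358 and 408 FPKM, rest mostly on *Tnnt2*, at 239 and 329 FPKM. Markers of enteric neurons and glia were above 1 in 7 of 10 genes, 1 of them at 2 or more, and summed to 410 and 492 FPKM.

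For 13 of the 34 genes an exon overlaps one of another annotated gene, on the opposite strand for most, as *Acadvl* with *Dvl2* or *Acaa1a* with *Myd88*. Whether counting used strand is not given in the sources used here, so reads of such pairs cannot be told apart.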

How the data were processed

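The deposited table gives FPKM per gene for 1 *Dnmt1*-WT and 1 *Dnmt1*-KO library, which the authors made from total RNA (mirVana isolation, TruSeq RNA libraries). The submitters' processing notes name TopHat 1.4.1, Cufflinks 2.0.2 and the build mm10. The table also holds the deposited number of transcript variants per gene, used here, and the authors' own ratio of the libraries, which was not used. FPKM depends on the annotation and on how reads shared by similar genes are divided, and shows no read counts per gene.

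The members and the gene lists were chosen with earlier results of these data known. Every member was named. Other pathway genes were named where they reached 1 FPKM in one library and a KO/WT ratio of 2 or more or 0.5 or less (others as values only). Comparison lists were named by at most 3 genes at each end, and marker lists by up to 4 abundant genes. A marker was also named where it was below 1 FPKM, stood in another list too or was not analysed. *Dgat1*, *Dgat2*, *Scd1* and *Fasn* were named in addition, chosen after their values were seen. The main measure was the KO/WT ratio of FPKM as deposited. List medians are of log2 ratios after adding 0.1 FPKM where stated so, and otherwise of plain ratios. The code that computes ratios and counts genes past a fold was tested on simulated data, which says nothing about noise in the libraries. No test across libraries was made, because each genotype has 1 library. Positions are from GENCODE M21 (GRCm38, which is mm10), and transcripts of similar genes were aligned with BLAST 2.17.0. Alternatives were other scalings between libraries, other pseudocounts, a filter at 1 FPKM in both libraries and a fold of 1.5. Python 3.11.15 and pandas 2.3.3 were used. Some genes of the lists are not reported here.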

Additional observations from a re-analysis of the deposited data

How the results depend on the processing

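No paired analysis was possible because each genotype has 1 library. The 5 members with a KO/WT ratio of 2 or more were counted as 5 under each scaling, pseudocount and filter, and as 6 at 1.5-fold. The count at a ratio of 0.5 or less, 1 (*Ppara*), became 0 with 1 FPKM added and 0 with the filter at 1 FPKM in both libraries, since *Ppara* was at 0.70 FPKM in *Dnmt1*-KO, and 2 at 1.5-fold. The median log2 ratio of the 34 genes, 0.0448, became 0.0744 when centred on the median ratio, -0.0561 when divided by the FPKM sum, 0.0754 when divided by the upper quartile, 0.0689 with the filter, and 0.0893 when centred within 10 bins of transcript length, a setting that was added once the data had been seen. Dividing by the FPKM sum shifts every log2 ratio by -0.10, so the side of 0 on which this median lies depends on the scaling. Across up to 7 settings 28 of the 34 genes stayed on one side of a ratio of 1. The exceptions were *Acads*, *Acox3*, *Cpt1a*, *Cpt1b*, *Echs1* and *Ppard*. *Lpl* ranged from 7.47 to 9.20 and *Acsl1* from 4.49 to 5.71. The table gives FPKM and no read counts, so no counting error was computed, which bears most on low genes such as *Ppara*.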

Other observations

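*Bdh1* and *Oxct1*, which act when ketone bodies are burned, were at 80.7 FPKM in *Dnmt1*-WT and 48.9 FPKM in *Dnmt1*-KO and at 74.8 and 49.0 FPKM. Neither had a ratio of 0.5 or less. *Acss1*, the mitochondrial synthetase that activates acetate, lay just outside that limit in the values as deposited, at 25 and 12.5 FPKM, a ratio of 0.501. *Acot13*, a mitochondrial thioesterase, was at 47.7 and 29.1 FPKM.

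Among the genes of triglyceride synthesis, *Agpat2*, an earlier acyltransferase of the route, had a ratio of 4.38. *Dgat1* and *Dgat2*, the acyltransferases that complete triglyceride, were at 13.5 and 30.2 FPKM and at 14.1 and 30.1 FPKM, and *Scd1*, a desaturase, at 12.1 and 51.0 FPKM. *Fasn*, the fatty-acid synthase, was at 15.3 and 16.6 FPKM. *Gpam*, the first acyltransferase of the route, was at 17.2 FPKM in *Dnmt1*-WT and 12.8 FPKM in *Dnmt1*-KO.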
